A study of Mus musculus with 30 samples.

Results

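The genes described here are those of the major histocompatibility complex (MHC) class II pathway and of dendritic cells: H2-Aa, H2-Ab1, H2-Eb1, Cd74, Ciita, H2-DMa, H2-DMb1, Flt3, Zbtb46 and Itgax. They were chosen by symbol, without use of their values, and are 10 of the 21841 genes in the table of counts. Of the 10, 8 had enough reads to be tested, and H2-Eb1 and Flt3 did not. RNA was sequenced from 30 mammary tumours of mice labelled FVB/N-Tg(MMTV-PyVT)634Mul/J, and the genotype in the labels is WT. The 6 groups of 5 were Vehicle, KCL-HO-1i, 5-FU, Gemcitabine and the combinations named KCL-HO-1i/5-FU and, with the other drug, KCL-HO-1i/Gemcitabine.

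KCL-HO-1i inhibits heme oxygenase-1, the enzyme that degrades heme. 5-FU (5-fluorouracil) and gemcitabine are antimetabolites used as chemotherapy. Per the labels the drugs were injected intraperitoneally over 72 h before the tumours were taken, with KCL-HO-1i at 25 µmol/kg each day, 5-FU at 40 mg/kg each 4 days and gemcitabine at 64 mg/kg each 7 days, and a combination received both of its drugs. In the text of the study the time is shorter and the dose of gemcitabine lower. In all groups, Vehicle included, the tumours arose spontaneously from polyoma middle T antigen under the mouse mammary tumour virus promoter, which is active mainly in mammary epithelium. Per the study each library came from the tumour of a separate mouse, so the p-values below measure the spread between tumours. Whole tumour tissue was sequenced, so fewer cells of a type and less RNA per cell cannot be told apart.

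MHC class II molecules present peptides from endocytosed proteins to CD4+ T cells. An alpha and a beta chain assemble with the invariant chain, which guides them to endosomes, where its remnant is exchanged for a peptide with the help of H2-DM. In the tumour stroma these genes are used by dendritic cells, B cells and many macrophages, and interferon-gamma can switch them on in other cells through the coactivator CIITA. Dendritic cells are the main cells that carry tumour antigen to lymph nodes and prime T cells there.

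The promoters of the class II genes share 2 boxes that hold the transcription complex to which CIITA binds, an X box bound by the RFX proteins and, downstream of it, a Y box that is an inverted CCAAT bound by NF-Y. The RefSeq promoters of H2-Aa (chr17:34287774-34288073, minus strand) and H2-Eb1 (chr17:34305617-34305916, plus strand, both GRCm38.p6) are shown because these were the members in which GCAAC, a core of the X box, was followed by ATTGG, the inverted CCAAT, and because H2-Aa was well detected in the tumours and H2-Eb1 was not. Each runs from 250 bases before the annotated start to 50 bases after it on the gene strand, and the capitals mark the GCAAC and the ATTGG.

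H2-Aa: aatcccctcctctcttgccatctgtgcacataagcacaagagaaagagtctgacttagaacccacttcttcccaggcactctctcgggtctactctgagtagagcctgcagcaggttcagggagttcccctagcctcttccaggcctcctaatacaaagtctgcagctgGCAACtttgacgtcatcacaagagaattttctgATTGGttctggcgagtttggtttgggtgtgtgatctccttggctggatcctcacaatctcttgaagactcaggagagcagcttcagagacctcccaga

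H2-Eb1: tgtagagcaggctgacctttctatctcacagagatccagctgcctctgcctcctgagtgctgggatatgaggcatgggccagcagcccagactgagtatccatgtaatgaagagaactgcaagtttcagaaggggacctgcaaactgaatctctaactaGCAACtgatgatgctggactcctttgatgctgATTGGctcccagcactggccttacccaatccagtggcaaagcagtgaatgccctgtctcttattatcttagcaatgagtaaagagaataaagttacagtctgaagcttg

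In H2-Aa the GCAAC began at position -81 and the ATTGG at -48, with the base before the start counted as -1, and the 2 were 33 bases apart. In H2-Eb1 they began at -91 and -59, which is 32 bases apart. A promoter was found for 7 of the 10 members. GCAAC followed on the gene strand, 20 to 45 bases after its start, by ATTGG was held by 2 of the 7 and by 0.6% of all 32851 promoters of the same length, a search chosen after the data were seen. On either strand, CCAAT was in 5 of 7 members and 37.4% of all promoters, AGCAAC in 2 of 7 and 14.8%, AGNAAC in 4 of 7 and 48.1%, TGCGTCA in 0 of 7 and 2.12%, and GCAAC in 5 of 7 and 35.2%. The AGCAAC matches overlap those of AGNAAC and GCAAC. A member was counted if any of its promoters held the letters, whereas the share of all promoters counts each promoter singly. H2-DMa had 2 promoters and was counted for GCAAC through 1 and for CCAAT and AGNAAC through the other. The sequences are those of the C57BL/6 reference. FVB mice carry another class II haplotype, H-2q, in which the I-E molecule is not made, and the effect of differences in sequence on the counting of class II reads was not tested.

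H2-Aa, H2-Ab1, H2-Eb1, H2-DMa and H2-DMb1 lie in the MHC on chromosome 17. In the GENCODE annotation of GRCm38, H2-DMa spans chr17:34119541-34139101, H2-DMb1 chr17:34153072-34160230, H2-Ab1 chr17:34257689-34269419, H2-Aa chr17:34282744-34287823 and H2-Eb1 chr17:34305867-34316674. Ciita is at chr16:10480059-10528418, Flt3 at chr5:147330741-147400489, Zbtb46 at chr2:181387762-181459426 and Itgax at chr7:128129547-128150657. Each gene is protein-coding.

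Levels below are in CPM, read counts scaled to the effective library size. Per kb of exon, the scale on which genes were compared, Cd74 was highest with a median over the 30 libraries of 168 CPM per kb. H2-Ab1 followed with 41.4 and H2-Aa with 20.9. The level was 7.61 CPM per kb for H2-DMb1, 3.5 for H2-DMa and 2.53 for Itgax. It was 1.05 for Ciita, 0.863 for Zbtb46, 0.0952 for Flt3 and 0 for H2-Eb1.

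Some libraries stood apart. Vehicle replicate 3 had the lowest summed level of 10 macrophage genes (99.4 CPM) and of 5 pan-leukocyte genes (30.1 CPM) of the 30 libraries, and Gemcitabine replicate 1 was next to lowest in the leukocyte sum at 43.8 CPM. KCL-HO-1i replicate 4 and KCL-HO-1i/Gemcitabine replicate 2 had the highest sums of adipocyte genes (1640 and 2110 CPM) and muscle genes (3420 and 9800 CPM). Luminal epithelial genes were present in each library, from 1990 to 4960 CPM in sum. Where a result was recomputed without 1 of these libraries, the value stands beside it.

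Across the treatments, H2-Aa, H2-Ab1, Cd74, H2-DMa, Flt3 and Itgax had their lowest mean in Vehicle and their 2 highest means in the combinations of KCL-HO-1i with chemotherapy. Ciita, H2-DMb1 and Zbtb46 followed other orders. No member passed an adjusted p of 0.05 in any of the 12 comparisons in edgeR, and without 1 library, Vehicle replicate 3, Vehicle was lowest for H2-DMa and Flt3 alone. Between libraries H2-Aa, H2-Ab1 and Cd74 moved almost as 1 unit. For Ciita r with H2-Ab1 was -0.00161 over the 30 libraries and 0.31 without Vehicle replicate 3.

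H2-Ab1 encodes the beta chain of the I-A molecule. Its level in replicates 1 to 5 was 50.4, 44.05, 1.93, 68.05 and 20.4 CPM in Vehicle, 51.8, 72.5, 47.2, 16.5 and 57.1 in 5-FU and 11.4, 48.1, 25.3, 49.9 and 75.3 under Gemcitabine. In the groups with KCL-HO-1i it was 29.5, 76.42, 51.75, 24.8 and 55.5 CPM in KCL-HO-1i alone, 45.6, 77.8, 78.8, 46.4 and 72.55 under KCL-HO-1i/5-FU and then 49.6, 63.25, 33.0, 78.4 and 75.99 under KCL-HO-1i/Gemcitabine. Vehicle replicate 3 was the lowest of the 30 libraries and Gemcitabine replicate 1 the next, each group overlapped every other, and Vehicle replicate 4 lay inside the range of every treated group. The mean was 36.98 ± 25.98 CPM in Vehicle (SD, n = 5), 64.2 ± 16.8 in KCL-HO-1i/5-FU, and it was 60.05 ± 18.99 under KCL-HO-1i/Gemcitabine. Without Vehicle replicate 3 the Vehicle mean was 45.7 CPM. The log2 fold change against Vehicle was 0.80 (SE 0.54, edgeR adjusted p = 0.452) in KCL-HO-1i/5-FU, and it was 0.70 (SE 0.53, adjusted p = 0.512) under KCL-HO-1i/Gemcitabine. With 1 library left out these ran from 0.48 to 1.14 and from 0.36 to 1.02, lowest without Vehicle replicate 3 and highest without Vehicle replicate 4.

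H2-Aa encodes the alpha chain of I-A. In replicates 1 to 5 it was at 22.6, 18.8, 0.264, 35.3 and 8.63 CPM in Vehicle, 22.4, 36.6, 23.7, 9.20 and 24.75 in 5-FU and 4.33, 23.04, 13.25, 23.4 and 34.85 under Gemcitabine. With KCL-HO-1i it was at 13.7, 33.4, 25.45, 13.3 and 29.5 CPM in KCL-HO-1i alone, 18.5, 39.95, 34.55, 21.3 and 30.3 under KCL-HO-1i/5-FU and then 26.1, 34.8, 15.7, 43.1 and 43.7 under KCL-HO-1i/Gemcitabine. Vehicle replicate 3, with 3 reads, again lay far under the other libraries, of which the lowest was Gemcitabine replicate 1, and all groups overlapped. KCL-HO-1i/Gemcitabine had the highest mean, 32.7 ± 11.9 CPM against 17.1 ± 13.4 in Vehicle, or 21.3 without replicate 3. The log2 fold change between them was 0.93 (SE 0.59, edgeR adjusted p = 0.407). It was 0.58 without Vehicle replicate 3 and 1.36 without Vehicle replicate 4.

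Cd74 encodes the invariant chain. Its level in replicates 1 to 5 was 172, 192.5, 9.41, 373 and 106 CPM in Vehicle, 229.9, 362, 239, 77.6 and 256 in 5-FU and 47.3, 236, 115, 263.5 and 365 under Gemcitabine. With KCL-HO-1i the values were 149, 359, 216, 123 and 258 CPM in KCL-HO-1i alone, 225, 457, 294, 235 and 293 under KCL-HO-1i/5-FU and then 247, 265, 159.9, 413 and 392 under KCL-HO-1i/Gemcitabine. The libraries took much the same order as for the chains, with Vehicle replicate 3 lowest and KCL-HO-1i/5-FU replicate 2 highest, and no pair of groups was apart. The log2 fold change against Vehicle was 0.82 (SE 0.56, edgeR adjusted p = 0.458) in KCL-HO-1i/5-FU, and it was 0.79 (SE 0.56, adjusted p = 0.469) under KCL-HO-1i/Gemcitabine. The Vehicle mean was 170.5 CPM, or 210.8 without replicate 3. With 1 library left out the first value ran from 0.50 to 1.33 and the second from 0.46 to 1.28, lowest without Vehicle replicate 3 and highest without Vehicle replicate 4, and neither reached an adjusted p of 0.05.

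H2-Eb1, the beta chain of I-E, was close to undetected. Reads were assigned to it in 6 of the 30 libraries, 14.69 expected reads in all, with at most 3.942 in a library (Vehicle replicate 1). In KCL-HO-1i/Gemcitabine all 5 libraries were at 0. A count of 3 reads in a library corresponded to between 0.215 and 0.302 CPM by library, so a level under that could not be told from 0. A fit of all genes with a read gave it fold changes too, but these rest on at most 5.342 expected reads in a group (Vehicle) and are no bound, so they are not described.

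**Figure D1:**
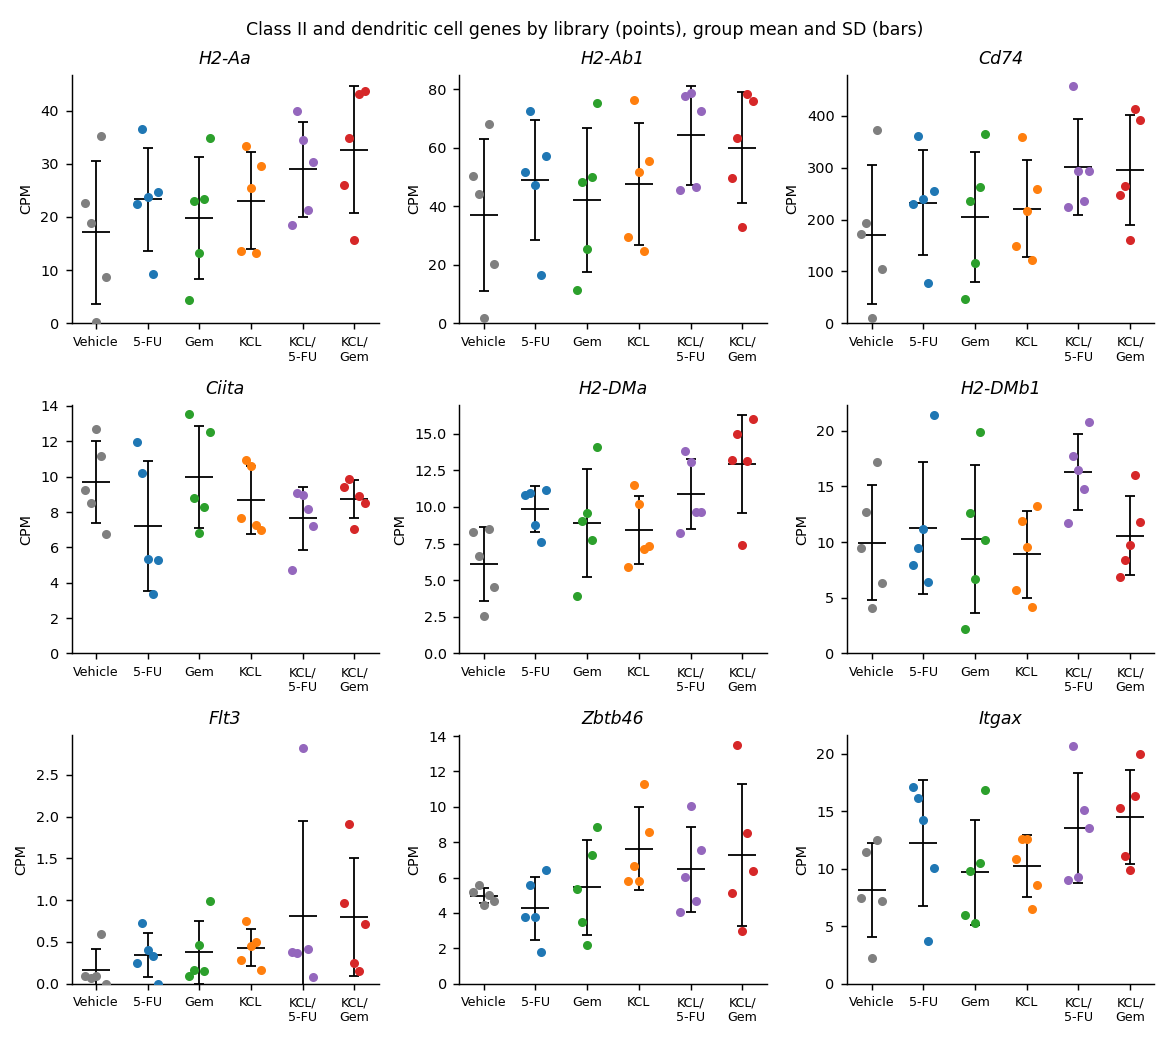
Level of 9 of the 10 genes in each of the 30 libraries, in CPM on linear axes, by treatment group, with bars for the mean and SD (n = 5, the lower bar cut at 0 for Flt3). H2-Eb1, near 0 in all libraries, is not drawn. The groups overlap in each panel except Vehicle and KCL-HO-1i for Zbtb46, and Vehicle replicate 3 is the lowest library for H2-Aa, H2-Ab1, Cd74, H2-DMa and Itgax.

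H2-DMa encodes the alpha chain of H2-DM, the catalyst of peptide exchange. Its level in replicates 1 to 5 was 8.31, 6.64, 2.57, 8.505 and 4.54 CPM in Vehicle, 10.8, 10.95, 8.79, 7.575 and 11.1 in 5-FU and 3.92, 9.06, 9.61, 7.76 and 14.1 under Gemcitabine. With KCL-HO-1i it was 5.88, 11.5, 10.2, 7.16 and 7.33 CPM in KCL-HO-1i alone, 8.22, 13.8, 13.04, 9.63 and 9.68 under KCL-HO-1i/5-FU and then 13.2, 14.99, 7.39, 13.1 and 16.02 under KCL-HO-1i/Gemcitabine. In KCL-HO-1i/Gemcitabine 4 of 5 libraries were above every Vehicle library, and replicate 3 was inside the Vehicle range. The groups without KCL-HO-1i but with chemotherapy also had higher means than Vehicle, 9.86 ± 1.59 and 8.89 ± 3.665 CPM against 6.11 ± 2.54. Of the members it had the largest share of its spread on the log2 scale between groups, 40.4%, where the others had from 8.45 to 23.1%. With 6 groups of 5 some share lies between groups by chance alone, and the shares were not compared with those of all genes.

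In edgeR the log2 fold change of H2-DMa against Vehicle was 1.09 (SE 0.30) in KCL-HO-1i/Gemcitabine, with an unadjusted p of 0.00123 and an adjusted p of 0.0834. It was 0.84 (SE 0.30, unadjusted p = 0.00954, edgeR adjusted p = 0.162) in KCL-HO-1i/5-FU and 0.69 (SE 0.30, unadjusted p = 0.0281, edgeR adjusted p = 0.999) in 5-FU alone. Other tools called it in KCL-HO-1i/Gemcitabine: DESeq2 gave the same 1.09 with an adjusted p of 0.0155 and limma-voom 1.20 with an adjusted p of 0.0102. These tools called far more genes in that comparison, 6.46% of the 13663 tested in DESeq2 and 9.68% in limma-voom, against 0% in edgeR. Over all alternatives the adjusted p of H2-DMa there ran from 0.0102 to 1, the latter with the mouse code as a covariate, and the log2 fold change from 0.86 to 1.22. The mouse code is the name used here for a number in the label of each library, which some libraries share and whose meaning is not stated. Of the Vehicle libraries, only replicate 1 shares its code with another group, through KCL-HO-1i/Gemcitabine replicate 5. With the code as a covariate, comparisons with Vehicle therefore rest on that pair of libraries. Against the chemotherapy alone the differences of H2-DMa were 0.54 (SE 0.30, edgeR adjusted p = 0.409) for KCL-HO-1i/Gemcitabine and 0.14 (SE 0.30, adjusted p = 0.884) for KCL-HO-1i/5-FU.

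H2-DMb1 encodes a beta chain of H2-DM. It shared 31.4% of its 31-base stretches with its neighbour H2-DMb2, so how reads were divided between them is uncertain. Its level ran from 2.16 CPM (Gemcitabine replicate 1) to 21.4 CPM (5-FU replicate 5). Without KCL-HO-1i the mean was 9.96 ± 5.19 CPM in Vehicle, 11.3 ± 5.93 in 5-FU and 10.3 ± 6.65 under Gemcitabine. With it the mean was 8.91 ± 3.90 CPM in KCL-HO-1i alone, 16.3 ± 3.38 under KCL-HO-1i/5-FU and then 10.6 ± 3.55 under KCL-HO-1i/Gemcitabine. KCL-HO-1i/5-FU stood highest and the other 5 means were within 1 SD of each other. Its log2 fold change against KCL-HO-1i was 0.87 (SE 0.44, unadjusted p = 0.0578, edgeR adjusted p = 0.316). H2-DMb2 was the gene most like it over the 30 libraries (Spearman rho = 0.879).

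Ciita encodes the coactivator that turns on the class II promoters. Its level in replicates 1 to 5 was 9.25, 8.50, 12.7, 11.2 and 6.77 CPM in Vehicle, 11.97, 10.2, 5.36, 3.34 and 5.26 in 5-FU and 13.6, 8.81, 6.83, 8.30 and 12.5 under Gemcitabine. With KCL-HO-1i it was 7.65, 10.9, 10.6, 7.26 and 6.98 CPM in KCL-HO-1i alone, 4.75, 9.07, 8.98, 8.15 and 7.24 under KCL-HO-1i/5-FU and then 9.42, 9.86, 7.07, 8.89 and 8.50 under KCL-HO-1i/Gemcitabine. Vehicle replicate 3, the lowest library for the chains, was the next to highest for Ciita after Gemcitabine replicate 1, and all groups overlapped. Its mean was 9.685 ± 2.32 CPM in Vehicle and lowest in 5-FU at 7.23 ± 3.67, and its libraries spanned 4.06-fold, where those of the other tested members spanned 6.22-fold (H2-DMa) or more. In the KCL-HO-1i average, the mean of its effects with vehicle, 5-FU and gemcitabine, the log2 fold change of Ciita was -0.09 (SE 0.16, edgeR adjusted p = 0.782).

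Zbtb46 encodes a transcription factor of conventional dendritic cells that is also made by endothelium. Its level in replicates 1 to 5 was 5.17, 5.595, 4.45, 5.00 and 4.69 CPM in Vehicle, 3.785, 5.56, 3.75, 1.79 and 6.42 in 5-FU and 5.375, 3.51, 2.20, 7.295 and 8.84 under Gemcitabine. With KCL-HO-1i it was 5.81, 6.63, 5.82, 11.3 and 8.555 CPM in KCL-HO-1i alone, 4.06, 6.01, 10.04, 4.67 and 7.57 under KCL-HO-1i/5-FU and then 5.12, 13.5, 2.96, 8.52 and 6.35 under KCL-HO-1i/Gemcitabine. All 5 KCL-HO-1i libraries lay above all 5 Vehicle libraries, the only pair of groups without overlap among 150 over the 10 genes, and the Vehicle libraries were close together. The share of all genes without overlap between KCL-HO-1i and Vehicle was not counted, so this gap was not read as a result about Zbtb46. The log2 fold change between those groups was 0.61 (SE 0.38, unadjusted p = 0.116, edgeR adjusted p = 0.682), and in that comparison 0% of all genes passed the adjusted threshold and 9.43% an unadjusted p under 0.05.

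In the KCL-HO-1i average Zbtb46 had a log2 fold change of 0.54 (SE 0.22, unadjusted p = 0.019, edgeR adjusted p = 0.136), and 14 of 15 libraries with KCL-HO-1i were above the mean of the matching group without it. How many of all genes had such a count was not examined. The libraries highest in Zbtb46 were KCL-HO-1i/Gemcitabine replicate 2, KCL-HO-1i replicate 4 and KCL-HO-1i/5-FU replicate 3. They also had the highest sums of 5 endothelial genes, 432, 253 and 309 CPM, and the first pair are those with the most adipocyte and muscle RNA. Without that pair, left out after the data were seen, the average was 0.37 (unadjusted p = 0.0905, edgeR adjusted p = 0.355). Over the 30 libraries Zbtb46 had r = 0.635 (permutation p = 0.00021, adjusted over 11 relations 0.000257) and rho = 0.43 (permutation p = 0.0192, adjusted 0.0211) with Cdh5, the endothelial cadherin, and r = 0.487 without the 2 libraries farthest from its median.

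Itgax encodes CD11c, an integrin of dendritic cells and many macrophages, and shared 10.7% of its 31-base stretches with Itgad. Its level in replicates 1 to 5 was 7.42, 11.4, 2.20, 12.5 and 7.215 CPM in Vehicle, 17.1, 16.15, 14.2, 3.75 and 10.1 in 5-FU and 5.96, 9.77, 5.31, 10.5 and 16.8 under Gemcitabine. With KCL-HO-1i it was 10.8, 12.6, 12.6, 6.46 and 8.58 CPM in KCL-HO-1i alone, 9.045, 20.7, 9.25, 15.1 and 13.5 under KCL-HO-1i/5-FU and then 15.3, 11.1, 9.91, 16.35 and 19.95 under KCL-HO-1i/Gemcitabine. The highest value of each combination exceeded those of the other groups, the lowest was again Vehicle replicate 3, and all groups overlapped. The log2 fold change of KCL-HO-1i/Gemcitabine against Vehicle was 0.83 (SE 0.39, unadjusted p = 0.0433, edgeR adjusted p = 0.236). limma-voom gave 0.93 with an adjusted p of 0.0383, and over all alternatives the adjusted p ran from 0.0383 to 1. Without Vehicle replicate 3 the Vehicle mean was 9.63 CPM instead of 8.14.

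Flt3 encodes the receptor for the growth factor on which dendritic cells depend. It had 171.1 expected reads over the 30 libraries. In replicates 1 to 5 the reads were 1, 1, 1, 7 and 0 in Vehicle, 3, 9, 4.874, 4 and 0 in 5-FU, and 1.198, 2, 5, 2 and 10 in Gemcitabine. With KCL-HO-1i they were 4, 10, 6, 5 and 2 in KCL-HO-1i alone, 5, 5, 32, 5 and 1 under KCL-HO-1i/5-FU, and then 13, 19, 3, 2 and 8 under KCL-HO-1i/Gemcitabine. KCL-HO-1i/5-FU replicate 3 alone held 32 of them, a library that also had the highest macrophage and leukocyte sums (825 and 254 CPM), and all groups overlapped. Without that library the mean of its group was 0.309 CPM instead of 0.811. Flt3 entered a fit of all 18557 genes with a read, where its KCL-HO-1i average was 1.19 on the log2 scale (SE 0.54, unadjusted p = 0.0363, edgeR adjusted p = 0.216). This value rests on few reads and includes that library, and the share of all genes at such a p in this fit was not counted.

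Placed in order of the mean log2 CPM, the groups gave 50 neighbouring pairs over the 10 genes, and in 0 of these did the neighbours differ by more than the larger SD. H2-Ab1 and Cd74 had the order KCL-HO-1i/5-FU, then KCL-HO-1i/Gemcitabine, 5-FU, KCL-HO-1i, Gemcitabine and Vehicle. H2-Aa and Flt3 began with KCL-HO-1i/Gemcitabine, followed by KCL-HO-1i/5-FU and by KCL-HO-1i alone, and for H2-DMa and Itgax 5-FU took the third place instead. For H2-DMb1 the order ran from KCL-HO-1i/5-FU to KCL-HO-1i, for Ciita from Gemcitabine to 5-FU, and for Zbtb46 from KCL-HO-1i to 5-FU. Vehicle was the lowest group for 6 genes, for 7 genes by the median in place of the mean, and for 2 genes, H2-DMa and Flt3, without Vehicle replicate 3.

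In the 5 comparisons with Vehicle, which share the Vehicle libraries, the number of the 8 tested members that passed an adjusted p of 0.05 in edgeR was 0, and among all 13663 genes it was 0%. At an unadjusted p under 0.05 the count was 1 member in 5-FU (H2-DMa, 3.89% of all genes), 0 in Gemcitabine (3.83%), 0 for KCL-HO-1i alone (9.43%), 1 under KCL-HO-1i/5-FU (H2-DMa, 17.6%) and 2 under KCL-HO-1i/Gemcitabine (H2-DMa and Itgax, 19.8%). A count of 1 or 2 among 8 genes was not read as a result about the members. The median log2 fold change of the tested members was 0.43 in 5-FU, 0.20 in Gemcitabine, 0.37 for KCL-HO-1i alone, and 0.74 and 0.75 for its combinations with 5-FU and gemcitabine, where the median of all genes was between -0.01 and 0.03.

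**Figure D2:**
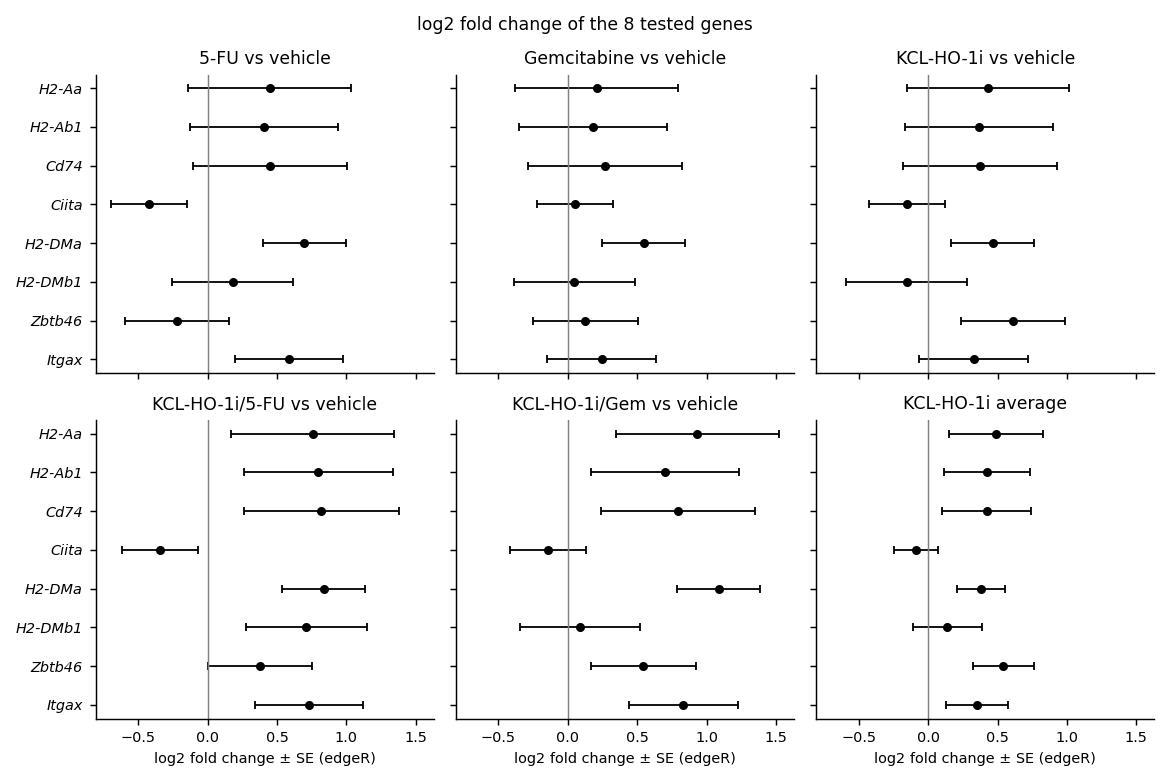
Log2 fold change with its standard error (edgeR) of the 8 tested genes in 5-FU, Gemcitabine, KCL-HO-1i and both combinations against Vehicle, and in the KCL-HO-1i average. Most points lie above 0, those of Ciita run from -0.42 to 0.05, and no point passed an adjusted p of 0.05.

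The KCL-HO-1i average pools 15 libraries with the inhibitor and 15 without it over the 3 backgrounds. The edgeR adjusted threshold was passed by 0 of the 8 members and 0.0586% of all genes (8 genes), and an unadjusted p under 0.05 by 2 members (Zbtb46 and H2-DMa) and 23.0% of all genes. H2-DMa had a log2 fold change of 0.38 (SE 0.17, unadjusted p = 0.0346, edgeR adjusted p = 0.18). For H2-Aa it was 0.49 (SE 0.34), for H2-Ab1 0.42 (SE 0.31), for Cd74 0.42 (SE 0.32), for Itgax 0.35 (SE 0.23) and for H2-DMb1 0.14 (SE 0.25), with edgeR adjusted p from 0.362 to 0.789. Of the 15 libraries with KCL-HO-1i, those above the mean of the matching group without it numbered 14 for H2-Ab1 and for Cd74, 12 for H2-Aa, H2-DMb1, Flt3 and Itgax, 11 for H2-DMa and 7 for Ciita. These means are of log2 CPM, and Vehicle replicate 3 lowers that of Vehicle for H2-Ab1 and Cd74. Without it the Vehicle mean was 45.7 CPM for H2-Ab1 and 210.8 for Cd74. KCL-HO-1i replicates 1 and 4 were under these, at 29.5 and 24.8 CPM and at 149 and 123. The share of all genes with such counts was not taken, so they were not read as a result. Without KCL-HO-1i replicate 4 and KCL-HO-1i/Gemcitabine replicate 2 no member passed an unadjusted p under 0.05, and H2-Ab1 had 0.47.

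The other comparisons asked what each drug added to the other. KCL-HO-1i/5-FU against 5-FU had 0 members at an unadjusted p under 0.05 (11.4% of all genes), and KCL-HO-1i/Gemcitabine against Gemcitabine 0 (13.5%). Against KCL-HO-1i the counts were 0 for KCL-HO-1i/5-FU (16.9%) and 1 (2.66%) when KCL-HO-1i/Gemcitabine was compared with it, H2-DMa with a log2 fold change of 0.62 (SE 0.30, unadjusted p = 0.0464, edgeR adjusted p = 0.9999). For the interaction of KCL-HO-1i with 5-FU it was 0 (8.53%) and with gemcitabine 0 (1.34%), and the smallest unadjusted p of a member was 0.274 (H2-DMb1). In each of these 6 comparisons 0% of all genes passed the adjusted threshold. Against the chemotherapy in it, the median of the members was 0.34 for the combination with 5-FU and 0.52 for that with gemcitabine, on the log2 scale.

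H2-Aa, H2-Ab1 and Cd74 varied together between libraries. With H2-Ab1, log2 CPM over the 30 libraries had r = 0.989 for Cd74 (rho = 0.937) and r = 0.988 for H2-Aa (rho = 0.946), and after each group's mean was taken out r was 0.986 and 0.989. Without the 2 libraries farthest from the median r was 0.964 and 0.974. Cd74 kept a nearly fixed proportion to H2-Ab1, a log2 difference of 2.23 with an SD of 0.17 and a range of 1.76 to 2.55. For H2-Aa minus H2-Ab1 the mean was -1.10 with an SD of 0.27, and the farthest library was Vehicle replicate 3 at -2.30, where H2-Aa had 3 reads. Each point is a tumour, and the values of a point share a library and its depth.

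Over the same libraries r with H2-Ab1 was 0.861 for H2-DMa (rho = 0.816), 0.852 for Itgax (rho = 0.685) and 0.726 for H2-DMb1 (rho = 0.675). Without the 2 farthest libraries these were 0.73, 0.724 and 0.688. For the macrophage receptor gene Csf1r r was 0.792 (rho = 0.705, 0.669 without 2 libraries) and for the leukocyte gene Ptprc 0.685 (rho = 0.587, 0.526). For these and for H2-Aa and Cd74 the permutation p of r was 1e-05, the smallest that the permutations drawn can give, except 2e-05 for H2-DMb1, and adjusted over 11 relations it was 1.57e-05 and 2.75e-05. The permutation p of rho was at most 0.0009 (adjusted 0.0011). Zbtb46 had r = 0.378 with H2-Ab1 (permutation p = 0.0451, adjusted 0.0497; rho = 0.596, p = 0.00059, adjusted 0.000811), and r was 0.283 without 2 libraries.

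For Ciita the value depended on 1 library. Over the 30 libraries its r with H2-Ab1 was -0.00161 (permutation p = 0.993, adjusted 0.993) and its rho 0.291 (permutation p = 0.118, adjusted 0.118), with r = 0.135 after the group means were taken out and -0.171 without the 2 libraries farthest from the median. Without Vehicle replicate 3, the library with the least H2-Ab1 and nearly the most Ciita, r was 0.31 and rho 0.429. The log2 CPM of Ciita minus that of H2-Ab1 had an SD of 1.17 and reached 2.62 in that library against a mean of -2.32. The genes most like Ciita by Spearman rho were Pxn (0.738), Sec16b (0.685), Ccl7 (0.682) and Adarb1 (0.662), none of them a class II gene.

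**Figure D3:**
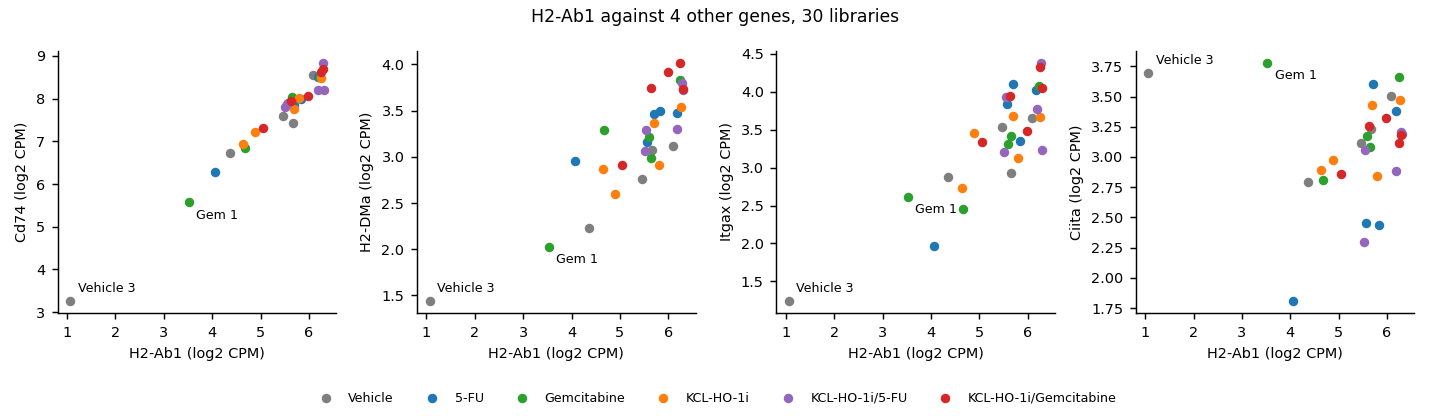
Log2 CPM (prior count 2) of Cd74, H2-DMa, Itgax and Ciita against that of H2-Ab1 in the 30 libraries, coloured by treatment group, with Vehicle replicate 3 and Gemcitabine replicate 1 marked. Cd74 follows H2-Ab1 over the whole range (r = 0.989), H2-DMa and Itgax follow it more loosely (0.861 and 0.852), and Ciita has r = -0.00161, or 0.31 without Vehicle replicate 3.

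The 8 genes most like the mean log2 CPM of H2-Aa, H2-Ab1, H2-Eb1 and Cd74 by Spearman rho over the 30 libraries were Shisa5 (0.846), Lilra5 (0.828), Lipa (0.823), Ptpn18 (0.805), Il21r (0.778), Rab7b (0.769), Tmem119 (0.758) and Tlr6 (0.757). With H2-Eb1 left out, a choice made after the data were seen, the leading genes were Il21r (0.831), Kcnj10 (0.828), Tlr1 (0.809), Il10ra (0.808) and Cybb (0.804), and Ctss, the protease that trims the invariant chain, was lower in that list at 0.79. For Itgax they were Mpeg1 (0.83), Ctss (0.83), Pilra (0.814) and Havcr2 (0.803). For Flt3 they were Ptprc (0.822), Dock11 (0.818), Twist2 (0.816) and Cd37 (0.811), and for Zbtb46 Tspan17 (0.721), Fzd4 (0.72) and Rab7b (0.718).

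Gemcitabine replicate 3 had the most B cell RNA of the libraries. Its sum of 8 B cell genes was 23.8 CPM, where the other libraries were at most at 6.87, with Cd79a, a chain of the B cell receptor, at 8.06 CPM and Ms4a1, which encodes CD20, at 3.53. H2-Ab1 in that library was 25.3 CPM, under the mean of its group. Cd79a was at 0 in 17 libraries.

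The meaning of the mouse codes is not stated. Per the study each library came from a separate mouse, so a shared code was not read as a shared mouse. Groups both with and without KCL-HO-1i held 3 of the codes, with 4 libraries on the KCL-HO-1i side. Itgax was higher with KCL-HO-1i in 4 of 4, at 6.46 against 3.75 CPM, 20.7 and 15.1 against 10.1, and 19.95 against 7.42. H2-Ab1 was higher in 3 of 4, at 24.8 against 16.5 CPM, 77.8 and 46.4 against 57.1, and 75.99 against 50.4. The count was 4 of 4 for Flt3, 3 for H2-Aa, Cd74 and Ciita, 2 for H2-DMa and Zbtb46 and 1 for H2-DMb1. These pairs also differ in chemotherapy for some codes, and no test was made on them.

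Other genes of the pathway are given from lists, each by its log2 fold change in the KCL-HO-1i average, where the median of all genes was 0.00 and 23.0% passed an unadjusted p under 0.05. None of the genes in these lists passed an edgeR adjusted p of 0.05 with all libraries. With 1 library left out, some passed in the average in 8 of 30 cases, among them Csf2ra in 8, Lgmn in 7 and Clec10a in 6. Genes of the lists of other cell types passed about as often, with the muscle gene Myh4 in 7. The macrophage gene C1qb and the leukocyte gene Coro1a passed in 6 each. The most list genes passed without Gemcitabine replicate 5, where 8.17% of all genes passed, H2-Ob, Lgmn, March1, Irf8, Wdfy4, Clec10a, Cd86 and Csf2ra among them. In the other cases between 0.13% and 6.07% of all genes passed. Of the other genes of class II loading and processing 5 of 8 in the table were tested, 4 at an unadjusted p under 0.05, all above 0, with a median of 0.78. These were Lgmn, an endosomal protease (0.84, SE 0.21, edgeR adjusted p = 0.0525), H2-Ob, a chain of the H2-DM inhibitor H2-O (1.15, SE 0.32, adjusted p = 0.0562), March1, a ubiquitin ligase that removes class II from the surface (0.78, SE 0.27, adjusted p = 0.0915), and Ctss (0.57, SE 0.25, adjusted p = 0.163). H2-DMb2 had 0.18 (SE 0.21). Against Vehicle alone the smallest p of the list were those of KCL-HO-1i/5-FU, with log2 fold changes of 1.37 for Lgmn and 2.02 for H2-Ob (edgeR adjusted p = 0.119 for both). Leaving out KCL-HO-1i/5-FU replicate 3 gave 0.86 for Lgmn there.

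The list of the class II transcription complex and its inputs held 13 tested genes, with a median of 0.00 and 2 at an unadjusted p under 0.05, both above 0. These were the interferon-gamma receptor genes Ifngr2 (0.19, SE 0.07) and Ifngr1 (0.32, SE 0.13), while Rfx5 had 0.15 (SE 0.16) and Creb1 -0.10 (SE 0.06). Of 12 interferon-gamma response genes 8 were tested, with a median of 0.04 and 1 at an unadjusted p under 0.05, Socs1, a feedback inhibitor of cytokine signals (0.93, SE 0.28, edgeR adjusted p = 0.0662). Against Vehicle, Socs1 had 1.46 in KCL-HO-1i/5-FU (edgeR adjusted p = 0.147) and, in the combination with gemcitabine, 1.45 (adjusted p = 0.114). Leaving out KCL-HO-1i/5-FU replicate 3 gave 0.72 for the first. Irgm1 had -0.29 (SE 0.18) and Gbp5 0.57 (SE 0.44). Ifng itself had at most 2 reads in a library and was at 0 in 23 of them.

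Dendritic cell genes were listed by type. For type 1 conventional dendritic cells 7 genes were tested, with a median of 0.63 and 2 at an unadjusted p under 0.05, the transcription factor gene Irf8 (0.70, SE 0.21, edgeR adjusted p = 0.0656) and Wdfy4, needed for cross-presentation (0.77, SE 0.28, adjusted p = 0.09996). The chemokine receptor gene Xcr1, which marks these cells, had 1.00 (SE 0.50). For type 2 cells 6 were tested, with a median of 0.74 and 2 at an unadjusted p under 0.05, the lectin gene Clec10a (2.11, SE 0.58, edgeR adjusted p = 0.0558) and the transcription factor gene Irf4 (1.51, SE 0.70). Sirpa had 0.22 (SE 0.12). Against Vehicle, Irf8 had 1.32 in KCL-HO-1i/Gemcitabine (edgeR adjusted p = 0.0869), Clec10a 2.78 in the same group (adjusted p = 0.134) and Irf4 3.86 with KCL-HO-1i alone (adjusted p = 0.351). The last 2 peaked in the libraries richest in adipocyte and muscle genes. Clec10a was highest in KCL-HO-1i/Gemcitabine replicate 2 (54.1 CPM, group mean 20.4) and had 1.98 without it. Irf4 was highest in KCL-HO-1i replicate 4 (12.5 CPM, group mean 3.54) and had 2.40 without it. Without both libraries the averages were 1.69 for Clec10a and 0.70 for Irf4, and the median of the type 2 list was 0.33, with 1 at an unadjusted p under 0.05. Without Gemcitabine replicate 5 that median was 1.18, with 4. Leaving out KCL-HO-1i/5-FU replicate 3 gave 0.48 for Xcr1. Macrophages also make several of these, Irf8 and Clec10a among them.

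Of the genes of mature dendritic cells and costimulation 8 were tested, with a median of 0.49 and 2 at an unadjusted p under 0.05, the costimulatory ligand gene Cd86 (0.72, SE 0.20, edgeR adjusted p = 0.056) and the actin bundler gene Fscn1 (0.59, SE 0.26). Cd40 had 0.45 (SE 0.25). Without KCL-HO-1i replicate 4 and KCL-HO-1i/Gemcitabine replicate 2 the median was 0.27 with 1 at that p, and Fscn1 had 0.30. Against Vehicle, KCL-HO-1i/5-FU had 1.22 for Cd86 and 0.71 for Relb, a transcription factor gene of the NF-kB family (edgeR adjusted p = 0.119 for both). Of plasmacytoid dendritic cell genes 3 were tested, with a median of 0.25 and 0 at an unadjusted p under 0.05. Tcf4 had 0.25 (SE 0.14) and Siglech 0.73 (SE 0.57), while Bst2 went the other way at -0.32 (edgeR adjusted p = 0.541). Of a list of growth factors, their receptors and chemokines 5 were tested, with a median of 0.32, the value of the chemokine gene Ccl5. Of these 1 was at an unadjusted p under 0.05, Csf2ra, a chain of the GM-CSF receptor (0.63, SE 0.14, edgeR adjusted p = 0.0525). Flt3l, the ligand of FLT3, had 0.13 (SE 0.28).

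Markers of other cell types were read in the same way. All 10 macrophage genes had values above 0, 8 of them at an unadjusted p under 0.05, with a median of 0.79, among them Csf1r (0.76, SE 0.22) and C1qb (0.79, SE 0.22). For the 5 leukocyte genes the median was 0.71 and 4 were at an unadjusted p under 0.05, with Ptprc at 0.71 (SE 0.21). The summed macrophage genes ran from 99.4 to 320.0 CPM in Vehicle, 183 to 498 in 5-FU, and 131 to 636 in Gemcitabine. They ran from 295 to 683 CPM in KCL-HO-1i alone, 317 to 825 under KCL-HO-1i/5-FU and then 396 to 718 under KCL-HO-1i/Gemcitabine. No library of KCL-HO-1i/Gemcitabine was in the Vehicle range of that sum, and each of the 10 genes had reads in every group, though Cd163 was at 0 in 2 libraries. How many of all genes lacked overlap between these groups was not counted, so the gap was not read as a result about macrophage genes.

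T cell genes had a median of -0.07, with 0 of 5 at an unadjusted p under 0.05, and the only B cell gene tested, Cd22, had 0.97 (SE 0.60). In the lymph node list 4 were tested, with a median of 0.53 and 0 at an unadjusted p under 0.05. Against Vehicle, 3 of the 4 were at an unadjusted p under 0.05 in Gemcitabine and 3 in KCL-HO-1i/Gemcitabine, all above 0, among them Ccl21a, which was at 0 in every Vehicle library. The count was 1 without Gemcitabine replicate 3 in the former and 1 without KCL-HO-1i/Gemcitabine replicate 2 in the latter. In 5-FU the count was 1, Ccl21a, with the smallest p of the list against Vehicle (8.53, edgeR adjusted p = 0.999). The mean of Ccl21a was 3.76 CPM in 5-FU, 2.83 in Gemcitabine and 3.24 in KCL-HO-1i/Gemcitabine. It was 0.509 CPM in KCL-HO-1i alone and 1.17 in KCL-HO-1i/5-FU. The summed list ran from 3.10 to 12.7 CPM in Vehicle and reached 140.0 in Gemcitabine and 638 in KCL-HO-1i/Gemcitabine, the last in replicate 2. The median was 0.74 for 5 endothelial genes (4 at an unadjusted p under 0.05), 2.36 for 5 adipocyte genes (5) and 3.35 for 5 muscle genes (5). Without KCL-HO-1i replicate 4 and KCL-HO-1i/Gemcitabine replicate 2 these medians were 0.25, 1.12 and 1.28, with 0 genes at that p in each. Luminal epithelial genes had a median of -0.16, with Cdh1 at -0.24 (SE 0.09) as the 1 of 5 at an unadjusted p under 0.05. The part of these cell types in the levels of the class II and dendritic cell genes was not tested.

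**Figure D4:**
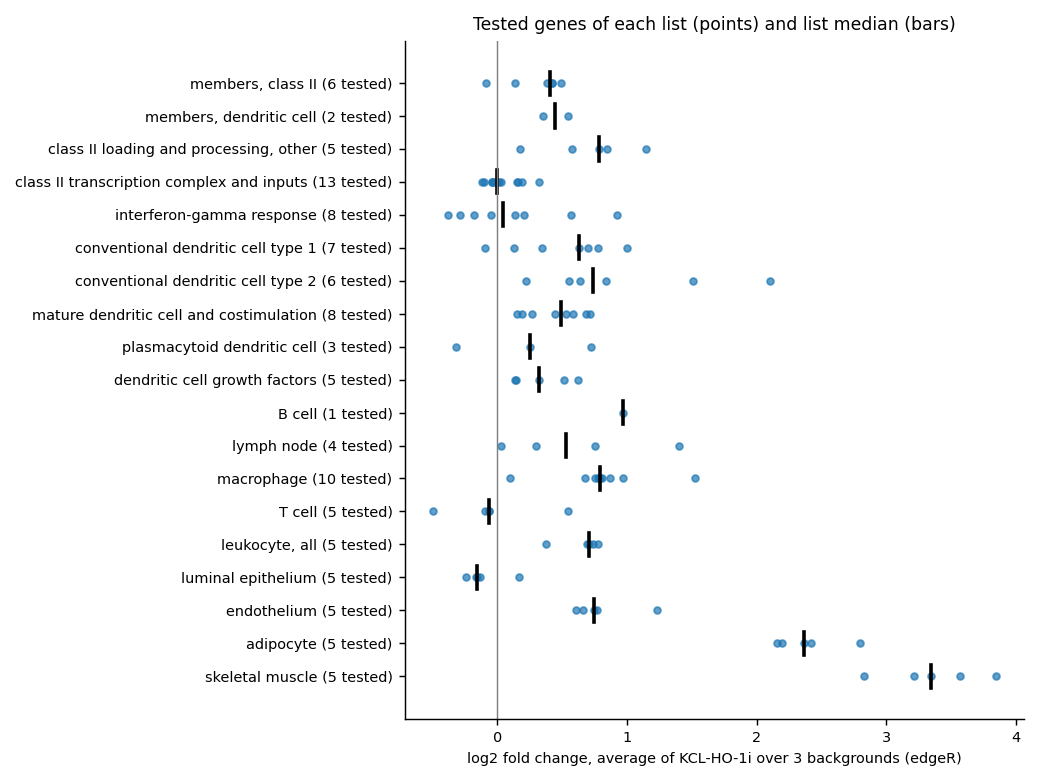
Log2 fold change in the KCL-HO-1i average (edgeR) of each tested gene of each list, as points, with the median of the list as a bar. Medians are near 0 for the class II transcription complex (0.00), the interferon-gamma response (0.04) and T cells (-0.07), between 0.25 and 0.79 for the class II loading, dendritic cell, leukocyte and macrophage lists, and highest for adipocyte (2.36) and muscle (3.35) genes.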

How the data were processed

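Tumour RNA was sequenced from directional libraries, 30 in 6 groups of 5 taken from the labels. The authors deposited estimated counts per gene, made per the submitters' processing notes with FastQC 0.11.9, STAR 2.7.9a and Salmon 1.9.0 on mm10, and no DESeq2 result was used. The study's methods speak of TPM, but 38% of the values are fractional and totals differ, from 10067577 to 13622264. Values were rounded. Of 21841 genes, 3284 had no read and 13663 passed filterByExpr of edgeR (minimum count 10). The other 8178 held 0.0565% of the counts. A count of 3 reads was the floor, equal to 0.215 to 0.302 CPM (counting error only).

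Differential expression was tested in R 4.3.3 with edgeR 4.0.16 (TMM, quasi-likelihood, 6 group means, all libraries, 12 comparisons), with Benjamini-Hochberg adjustment over all genes tested and a threshold of 0.05. The biological coefficient of variation was 0.401. The script was tested on simulated data. Log2 CPM used a prior count of 2. Correlations used two-sided permutation tests. Replicates of a group were checked for repeated libraries over 60 pairs, and the lowest chi-square per degree of freedom was 19.6. Alternatives were RLE, DESeq2 1.42.0, limma-voom (limma 3.58.1), a mean of 50 counts or no filter, a replicate block, the mouse code as covariate, only the groups compared, leaving out each library, and 0.5 as prior count. Leaving out the 2 libraries richest in adipocyte and muscle genes was added after the data were seen, as was leaving out libraries for the lists.

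The members and lists were chosen with earlier results of these data known. Named genes were the 10 members, up to 3 genes a list with the smallest p in the KCL-HO-1i average and up to 2 with the smallest in any comparison with vehicle, and the genes most like the members by Spearman rho. The B cell genes other than Cd22, and H2-DMb2, Ctss, Rfx5, Ifng, Flt3l, Ccl21a and Cd163, were named after their values were seen. Lists of other cell types are given mostly by counts and medians. Some genes are not reported here.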

Additional observations from a re-analysis of the deposited data

Results flagged for a closer look

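In KCL-HO-1i/Gemcitabine, H2-DMa was at 7.39 CPM in replicate 3, far from the other 4 libraries of the group, which lay between 13.11 and 16.02 CPM. The check was made on log2 CPM (prior count 2), where it was at 2.91 and the others lay between 3.731 and 4.016. On that scale its gap to the nearest of them was 0.742 of the range of the group. That is above Dixon's 95% limit of 0.71 for 5 samples. It was the only such library on the log2 scale among 54 groups of 5 examined over the members, and chance gives about 1 in 20.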

How the results depend on the processing

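No member passed the adjusted threshold in the 12 comparisons under any alternative except KCL-HO-1i/gemcitabine against vehicle, with 1 member in DESeq2 (H2-DMa) and 2 in limma-voom (H2-DMa and Itgax). At an unadjusted p of 0.05, counts moved by over 1.5 times as follows. Against vehicle limma-voom gave 2 in 5-FU, 1 in gemcitabine, and 4 and 5 in their combinations with KCL-HO-1i, 2 in the latter against gemcitabine, and 1 and 2 for the 5-FU and gemcitabine combinations against KCL-HO-1i. The mouse code gave 0 in 5-FU and in both combinations against vehicle, 1 in the KCL-HO-1i average, and for KCL-HO-1i/gemcitabine 1 against the chemotherapy alone and 0 against KCL-HO-1i. No filter gave 2 and 4 in the 5-FU and gemcitabine combinations against vehicle, by adding Flt3 to both and to the latter H2-Eb1, with a fitted -3.23 against 5.342 reads in vehicle and 0 in the combination, which is no bound. Only the groups compared gave 1 in KCL-HO-1i alone, 1 in KCL-HO-1i/gemcitabine against vehicle and, against KCL-HO-1i, 1 for the combination with 5-FU, where DESeq2 also gave 1. RLE and a mean of 50 counts gave 0 in KCL-HO-1i/gemcitabine against KCL-HO-1i, and leaving out the 2 libraries richest in adipocyte and muscle genes gave 0 there and 0 in the average. Replicate numbers did not pair the samples: same-numbered libraries of other groups had a mean correlation of deviations of 0.00742 over 75 pairs (lowest -0.529), and others 0.00128 over 300. The replicate block gave 1 and 0 for the 5-FU and gemcitabine combinations against KCL-HO-1i, turned H2-DMb1 in gemcitabine to -0.0827, and changed no adjusted call. With 1 library left out the counts ran from 0 to 2 in 5-FU, 0 to 2 in gemcitabine, 0 to 1 in KCL-HO-1i, 1 to 5 in each combination (5 without Vehicle replicate 4), 0 to 3 in the average (0 without KCL-HO-1i/Gemcitabine replicate 2), 0 to 2 in KCL-HO-1i/gemcitabine against gemcitabine (2 without Gemcitabine replicate 5), and 0 to 1 for each combination against KCL-HO-1i. Signs turned mostly in gemcitabine against vehicle: under the mouse code H2-Aa had -0.43, H2-Ab1 -0.44, Cd74 -0.0536, Ciita -0.99, Zbtb46 -0.84 and Itgax -0.31, and limma-voom gave Zbtb46 -0.0207. With 1 library left out these ran from -0.12 to 0.65 (H2-Aa), -0.13 to 0.52 (H2-Ab1), -0.0513 to 0.77 (Cd74), -0.0877 to 0.16 (Ciita), -0.11 to 0.33 (Zbtb46), -0.0461 to 0.45 (Itgax) and -0.35 to 0.34 (H2-DMb1). H2-DMb1 ran from -0.19 to 0.47 in 5-FU, -0.37 to 0.12 in KCL-HO-1i alone and -0.14 to 0.36 in KCL-HO-1i/gemcitabine, was 0.25 in KCL-HO-1i and -0.28 in the average under the mouse code, and 0.0187 in KCL-HO-1i without the 2 libraries. Ciita was 0.12 in KCL-HO-1i alone and 0.0477 in KCL-HO-1i/gemcitabine in limma-voom, and 0.00913 in KCL-HO-1i and 0.55 in the average under the mouse code. Zbtb46 was -0.27 in KCL-HO-1i/5-FU under the mouse code, and r of H2-Ab1 with Ciita was 0.135 within groups. The mouse code also raised values without turning them: in the average and the 3 groups with KCL-HO-1i against vehicle, Itgax ran from 1.35 to 1.51 and Cd74 from 0.9994 to 1.23. Under the mouse code, comparisons with Vehicle and the Vehicle part of the average rest on Vehicle replicate 1 and KCL-HO-1i/Gemcitabine replicate 5. No other code links Vehicle to another group. In that pair Itgax was at 7.42 and 19.95 CPM and Cd74 at 172 and 392. Apart from this, the cause of these changes was not tested.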
